A study of Mus musculus with 18 samples.

Results

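The genes of platelet-derived growth factor (PDGF) and its receptors were followed through the first 72 h of acute myocardial infarction (AMI) in mice. They are 7 genes, taken by symbol from the 24419 gene symbols of the expression table. 4 encode the ligands (Pdgfa, Pdgfb, Pdgfc and Pdgfd), 2 the receptors (Pdgfra and Pdgfrb), and 1 the receptor-like protein Pdgfrl. RNA was sequenced from heart tissue of 18 male C57BL/6 mice, 8 weeks old, with no genetic change named. A control group, called sham in the study, had 3 mice. In 5 groups of 3 the left anterior descending coronary artery was tied near its origin, and hearts were taken 10 min, 1 h, 6 h, 24 h or 72 h later. All groups had pentobarbital. The study took the infarcted left ventricle, so each sample holds heart muscle, vessels, connective tissue and any blood cells present. Expression was given as FPKM, a count of sequenced fragments scaled to transcript length and library size, with 1 value per gene and mouse. A log2 difference here is that of mean log2(FPKM + 1), with its standard error (SE).

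PDGF ligands are secreted as dimers that bring receptor chains together at the cell surface and switch on their tyrosine kinases. The A and B chains are processed inside the cell, whereas the C and D chains carry a CUB domain that must be cut off by an extracellular protease before they can bind. The receptor α chain binds A, B and C chains, and the β chain binds mainly B and D chains. In the heart the α receptor marks fibroblasts and their progenitors. The β receptor marks pericytes and vascular smooth muscle cells, which are recruited by PDGF-B from endothelium, and platelets carry PDGF in their granules. Pdgfrl has immunoglobulin-like domains related to those of the receptors but no kinase domain.

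Promoter sequences are shown for Pdgfc and Pdgfra, which rose at 72 h, and Pdgfd, which fell. They are the 3 members with a window taken here that lay outside the annotated gene, and were not chosen by their course. Each window holds the 250 bases before a RefSeq start of GRCm38.p6, on the plus strand, at chr3:81036166-81036415 for Pdgfc, chr9:6168236-6168485 for Pdgfd and chr5:75152001-75152250 for Pdgfra. Capitals mark a TATAAA motif.
Pdgfc promoter: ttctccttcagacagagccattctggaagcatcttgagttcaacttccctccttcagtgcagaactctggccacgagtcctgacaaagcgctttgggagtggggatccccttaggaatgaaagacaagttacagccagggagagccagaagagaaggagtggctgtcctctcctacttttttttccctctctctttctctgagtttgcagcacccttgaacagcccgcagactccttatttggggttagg
Pdgfd promoter: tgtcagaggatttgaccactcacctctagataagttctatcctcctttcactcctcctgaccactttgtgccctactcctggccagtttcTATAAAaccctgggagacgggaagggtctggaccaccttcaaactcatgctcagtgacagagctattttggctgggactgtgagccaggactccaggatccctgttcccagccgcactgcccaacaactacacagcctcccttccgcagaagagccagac
Pdgfra promoter: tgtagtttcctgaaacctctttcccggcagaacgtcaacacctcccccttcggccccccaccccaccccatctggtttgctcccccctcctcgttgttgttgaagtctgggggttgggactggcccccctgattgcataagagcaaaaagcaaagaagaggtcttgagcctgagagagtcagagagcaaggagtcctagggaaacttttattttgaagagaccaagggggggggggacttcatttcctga
The motifs searched on both strands were TATAAA (the TATA box), GGGCGG (a GC box), TGANTCA (an AP-1 motif) and GCGGGGGCG (an EGR1 motif). The Pdgfd window held 1 TATAAA, 160 bases before the start, and the windows of Pdgfc and Pdgfra held none of the 4 motifs. Of 32851 promoter windows of the same length, 12.4% held TATAAA, 32.7% GGGCGG, 6.75% TGANTCA and 2.57% GCGGGGGCG. The share of G and C was 50.8% for Pdgfc, 53.6% for Pdgfd and 54.4% for Pdgfra, against a median of 52.4% over all windows. The RefSeq start lay 0 bases from the nearest GENCODE M21 start for Pdgfc, 98 for Pdgfd and 41 for Pdgfra. A match is a run of letters, not a bound site.

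All 7 genes had at least 1 FPKM in 1 or more mice and were tested with the other genes that met this limit, 13333 in all. Log2(FPKM + 1) of 3 AMI mice was compared with that of 3 control mice in limma (moderated test, two-sided), and a gene was called higher or lower at a Benjamini-Hochberg adjusted p under 0.05 over all genes tested. The same control mice enter every comparison with control. FPKM are relative within a mouse, and the scale matters late in the course. As deposited, all genes had a median log2 difference of 0.13 at 24 h and 0.29 at 72 h. It was 0.01 and 0.03 after median-of-ratios scaling, and -0.06 and -0.12 after quantile normalization. The genes called higher and lower at 72 h numbered 7081 and 3226 as deposited, 5208 and 4792 after median-of-ratios scaling, and 4276 and 5791 after quantile normalization. For 24 h the same 3 scales gave 3496 higher with 1516 lower, 2460 with 2426, and 2118 with 2736. For 6 h the deposited scale gave 1543 with 2233, and median-of-ratios scaling 1922 with 1586. In whole tissue, fewer cells of a type and less RNA per cell cannot be told apart.

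The calls came late. With limma, 0 of the 7 members were called at 10 min, where 0.248% of all genes were called higher and 0.0978% lower. Again 0 were called at 1 h, with 0.669% of genes higher and 0.0526% lower, and 0 at 6 h, with 11.6% higher and 16.8% lower. At an unadjusted p under 0.05 there was 1 member at each of these times, Pdgfc at 10 min, Pdgfra at 1 h and Pdgfd at 6 h, and 1955, 1673 and 5673 of all genes. At 24 h Pdgfra and Pdgfc were higher, 2 of 7 against 26.2% of all genes, and Pdgfrl was lower, 1 of 7 against 11.4%. At 72 h 5 of 7 were higher (Pdgfrl, Pdgfc, Pdgfra, Pdgfrb and Pdgfa) against 53.1% of all genes, and 1 of 7, Pdgfd, was lower against 24.2%. Pdgfc reached 1 FPKM only at 72 h, so its place among the genes tested rests on that group. After median-of-ratios scaling the members called at 72 h were 3 higher and 2 lower, since Pdgfa and Pdgfrb lost their call and Pdgfb was called lower. The median log2 fold change of the 7 members was 0.49 at 72 h, beside 0.29 for all genes tested, and 0.36 beside 0.13 at 24 h.

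**Figure D1:**
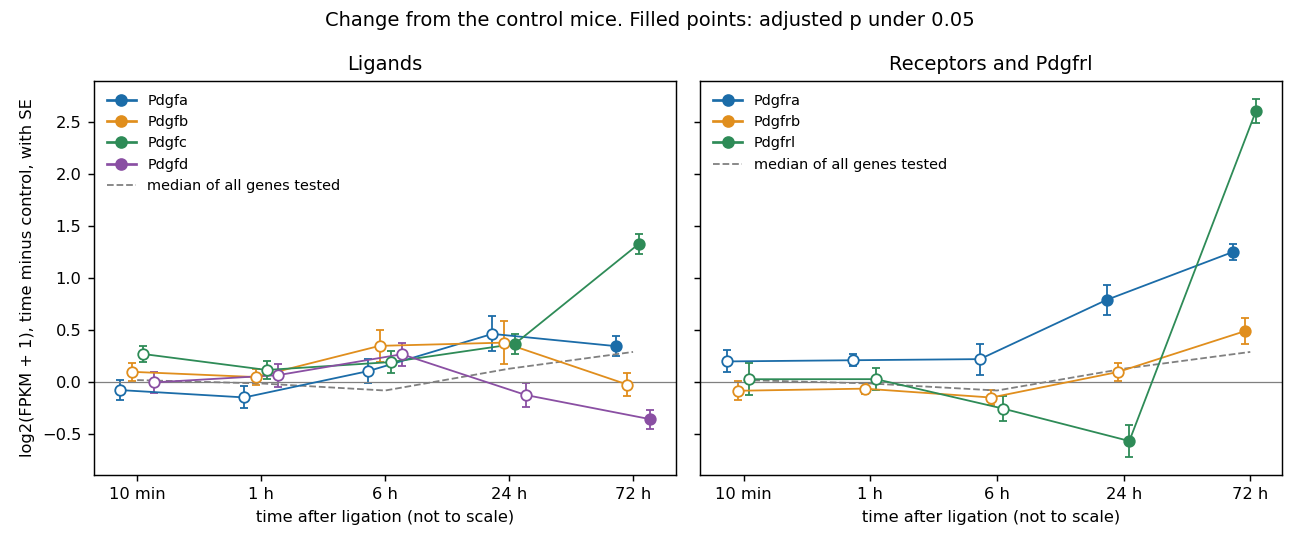
Difference in log2(FPKM + 1) from the control mice at each time for the 4 ligands (left) and the receptors with Pdgfrl (right). Points are fitted differences with their SE, filled where the adjusted p was under 0.05, and the dashed line is the median of all genes tested. Pdgfrl (2.61), Pdgfc (1.33) and Pdgfra (1.25) lie farthest above that line at 72 h. The filled points of Pdgfa and Pdgfrb at 72 h were not called after median-of-ratios scaling or quantile normalization, and that of Pdgfa was below 0 after the latter.

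In the control hearts PDGF expression was dominated by 1 ligand and both receptors. Mean FPKM was 54.5 ± 5.87 for Pdgfb, 41.7 ± 1.47 for Pdgfrb and 31.6 ± 0.788 for Pdgfra (SD, n = 3 mice). Pdgfa had 3.52 ± 0.457 FPKM, Pdgfd 2.57 ± 0.0436, Pdgfrl 1.10 ± 0.272 and Pdgfc 0.256 ± 0.0845. No neighbours in this order overlapped in range among the control mice. By 72 h the order was Pdgfra, Pdgfrb, Pdgfb, Pdgfrl, Pdgfa, Pdgfc and Pdgfd, in which Pdgfra and Pdgfrb, Pdgfrb and Pdgfb, and Pdgfc and Pdgfd overlapped in range. Pdgfrl passed from the sixth highest of the 7 at 1 h to the lowest at 24 h and the fourth highest at 72 h.

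Pdgfb, the ligand of both receptors and the chain made by endothelium and platelets, had the highest FPKM of the ligands in every group and was not called in any comparison. It lies on the minus strand at chr15:79995874-80014977 (mm10, GENCODE M21). Control mice had 50.5, 51.7 and 61.2 FPKM, mice at 10 min 54.2, 58.0 and 62.5, and mice at 1 h 56.3, 53.2 and 58.9. These 3 groups overlapped. At 6 h the values were 68.2, 86.7 and 56.3 FPKM, and at 24 h 51.3, 75.7 and 91.4, so that 2 of 3 mice at each of these times lay above all controls and 1 lay among them. The log2 fold change was 0.35 at 6 h (SE 0.16, limma adjusted p = 0.136) and 0.38 at 24 h (SE 0.20, adjusted p = 0.178). Leaving out single mice moved these values. Without the third 6 h mouse the log2 fold change at 6 h was 0.49 with adjusted p = 0.0369, and without the first 24 h mouse that at 24 h was 0.61 with adjusted p = 0.0148. These were the largest of 14 alternatives. The smallest log2 fold change was 0.19 at 6 h and 0.20 at 24 h, and the limma adjusted p reached 0.311 and 0.398. At 72 h, with 50.5, 61.6 and 48.7 FPKM, 1 mouse lay just above the range of the controls and 2 just below it (log2 difference -0.03 with SE 0.11, adjusted p = 0.835), but was called lower after median-of-ratios scaling (-0.34, adjusted p = 0.0122).

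Markers of the cells known to make PDGF-B were mixed, and the rise of the platelet sum was mostly Pf4. The summed FPKM of 10 endothelial markers was 734 to 784 in control mice, 794 to 1001 at 6 h, 662 to 861 at 24 h and 599.95 to 731 at 72 h. At 72 h 1 was called higher and 5 lower, beside 53.1% and 24.2% of all genes. The sum of 8 platelet and megakaryocyte markers was 18.9 to 21.5 in controls, 18.7 to 53.1 at 6 h, 46.8 to 120 at 24 h and 191 to 210 at 72 h. At 72 h 4 of the 7 tested were higher and 1 lower, near the same shares of all genes. Their median log2 fold change was 0.26, beside 0.29 for all genes. Most of the sum was Pf4 (189 FPKM on average), a chemokine that some macrophages also make. Of the others, Ppbp went from 0.793 FPKM on average in controls to 8.25 at 72 h, Gp1bb from 0.238 to 3.93 and Itga2b from 0.449 to 0.738, all called higher. Gp1bb reached 1 FPKM only in mice at 24 h and 72 h, so it passed the filter through the groups where it was high. Gp1ba was called lower, from 1.12 to 0.360, Gp9 had 0.106 and 0.152 and Treml1 0.156 and 0.180 (not called), and Gp6 was listed at 0 in all 3 mice at 72 h. The part of either cell type in the level of Pdgfb was not tested.

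Pdgfa, which binds the α receptor alone, was a low ligand that stood higher at 24 h and 72 h. Its gene is on the minus strand at chr5:138976014-138997370 and shares 813 exon bases with the antisense gene 6330403L08Rik, whose reads cannot be told apart in libraries that do not keep strand. Control mice had 3.26, 4.05 and 3.25 FPKM. At 10 min the values were 3.02, 3.49 and 3.30, at 1 h 2.85, 2.85 and 3.52, and at 6 h 4.37, 3.53 and 3.68. Only 1 of these 9 mice, at 6 h, lay above the controls. All 3 mice at 24 h did so, with 4.21, 4.86 and 6.83 FPKM, but the spread was wide and the gene was not called (log2 difference 0.46 with SE 0.17, adjusted p = 0.0674). Without the first 24 h mouse the adjusted p was 0.0339. Over 14 alternatives the log2 fold change at 24 h ran from 0.24 to 0.59, with limma adjusted p from 0.0089 to 0.227. At 72 h the mice had 4.30, 4.93 and 4.95 FPKM, again all above the controls (log2 difference 0.34 with SE 0.10, adjusted p = 0.0111). This difference was close to the median of all genes, and it was 0.09 (adjusted p = 0.431) after median-of-ratios scaling and -0.17 (adjusted p = 0.155) after quantile normalization.

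Pdgfc, a ligand of the α receptor that needs extracellular cleavage, was the lowest ligand in control hearts and had the largest fold rise of the ligands. It lies on the plus strand at chr3:81036416-81214040 and shares 147 exon bases with the antisense gene Gm16000. Control mice had 0.345, 0.248 and 0.176 FPKM. Mice at 10 min had 0.606, 0.467 and 0.465 FPKM, all above the controls (log2 difference 0.27 with SE 0.08, unadjusted p = 0.00917, limma adjusted p = 0.195). At 1 h the values were 0.322, 0.509 and 0.256, and at 6 h 0.604, 0.305 and 0.401, and both groups overlapped the controls. At 24 h they were 0.571, 0.583 and 0.695 FPKM, without overlap (log2 difference 0.36 with SE 0.10, adjusted p = 0.0278). The call was lost with any 1 control mouse left out (limma adjusted p between 0.0631 and 0.101) and after quantile normalization (0.304). Leaving out a control mouse also cut the calls over all genes at 24 h. The number called higher went from 3496 to 1262 without the first control mouse, 1319 without the second and 1646 without the third.

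At 72 h Pdgfc reached 2.07, 2.0 and 2.38 FPKM, 8.40 times the control mean. The log2 fold change was 1.33 (SE 0.09, adjusted p = 2.96e-06). Against 24 h it was 0.96 (SE 0.11, adjusted p = 0.000503). Because the gene was so low in the controls, the size depended on the scale, with a log2 fold change at 72 h of 2.68 for a pseudocount of 0.1 and of 0.73 after quantile normalization, and the call held under each. Pdgfc reached 1 FPKM only in the mice at 72 h and so passed the filter through the group where it was high. With no filter the log2 fold change at 72 h was the same, with adjusted p = 2.07e-05, and a filter on a mean of at least 1 FPKM left the gene out.

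Pdgfd, a ligand of the β receptor that also needs cleavage, was the only ligand called lower on the deposited scale. It lies on the plus strand at chr9:6168584-6378850. Control mice were close together at 2.62, 2.56 and 2.54 FPKM. The values were 2.26, 3.08 and 2.40 at 10 min and 3.42, 2.47 and 2.40 at 1 h, on both sides of the controls. At 6 h all 3 mice lay above the controls with 2.88, 3.23 and 3.84 FPKM (log2 difference 0.27 with SE 0.11, limma adjusted p = 0.105). After median-of-ratios scaling this was 0.34 with adjusted p = 0.0443. Mice at 24 h had 2.77, 2.01 and 2.1 FPKM (log2 fold change -0.13, adjusted p = 0.414). At 72 h all 3 lay below the controls, with 1.79, 2.06 and 1.54 FPKM (log2 difference -0.36 with SE 0.09, adjusted p = 0.00654). The fall was deeper on the other scales, -0.56 after median-of-ratios scaling and -0.91 after quantile normalization.

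**Figure D2:**
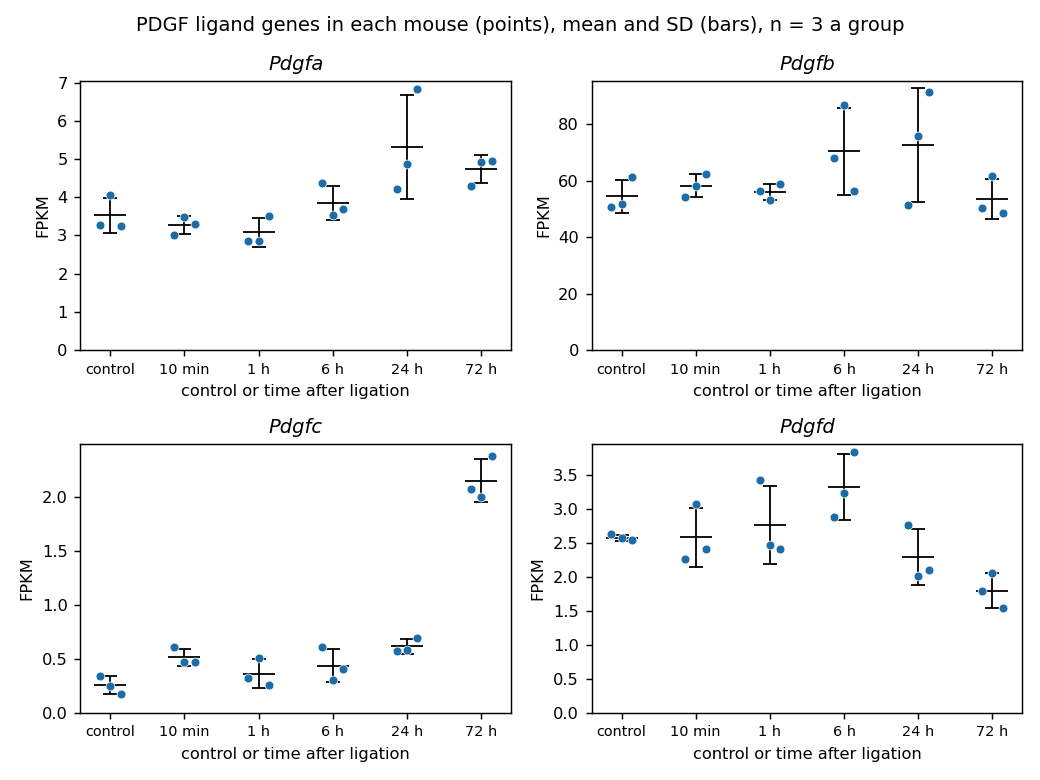
FPKM of the 4 ligand genes in each mouse of the control group and of the 5 times after ligation, each panel with its own axis from 0. Points are mice, and bars give mean and SD (n = 3). Pdgfc at 72 h (2.0 to 2.38 FPKM) stands apart from all other groups, Pdgfd at 72 h lies below the controls, and Pdgfb at 6 h and 24 h spreads widely.

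As a share of the summed FPKM of the 4 ligands, Pdgfb made up 89.5% ± 1.47 in control mice and 86.0% ± 1.34 at 72 h (SD, n = 3). Pdgfc went from 0.431% ± 0.173 to 3.50% ± 0.650, Pdgfa from 5.83% ± 1.04 to 7.64% ± 0.849 and Pdgfd from 4.26% ± 0.435 to 2.88% ± 0.186. The mixture thus stayed mostly Pdgfb in RNA at every time. These shares are descriptions of RNA, with no test, and do not give the amount of active protein.

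Pdgfra, the α receptor of fibroblasts, was higher than in controls at 24 h and at 72 h, and both calls held under every alternative. The gene is on the plus strand at chr5:75152292-75198215. It shares 456 exon bases with the antisense gene Gm42802, 166 with Gm42803 and 30 with Mir7025. Control mice had 32.5, 31.4 and 31.0 FPKM. At 10 min the values were 31.1, 36.3 and 42.7, of which 2 lay above the controls, and at 1 h 36.1, 39.2 and 34.9, of which all 3 did (log2 difference 0.21 with SE 0.06, unadjusted p = 0.00824, limma adjusted p = 0.241). At 6 h the mice were split, with 40.3 FPKM in the first mouse, 43.6 in the third and 28.7 in the second, below all controls (log2 difference 0.22 with SE 0.15, adjusted p = 0.293). Without that second mouse the log2 fold change at 6 h was 0.40 with adjusted p = 0.0138, the largest of 14 alternatives. The smallest was 0.10, and the limma adjusted p reached 0.606.

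At 24 h Pdgfra stood at 46.1, 53.2 and 69.1 FPKM, all above the controls (log2 difference 0.79 with SE 0.14, adjusted p = 0.00934). At 72 h it stood at 70.2, 84.4 and 76.1 FPKM, 2.43 times the control mean (log2 difference 1.25 with SE 0.08, adjusted p = 1.31e-06). Over 14 alternatives its log2 fold change ran from 0.63 to 0.92 at 24 h, with adjusted p of at most 0.0438, and from 0.94 to 1.32 at 72 h, with adjusted p of at most 2.03e-05. The step from 24 h to 72 h was 0.46 (SE 0.16, adjusted p = 0.0501), and 0.62 with adjusted p = 0.00341 without the third 24 h mouse. Over 14 alternatives this step ran from 0.30 to 0.62, with limma adjusted p of up to 0.156.

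Pdgfrb, the β receptor of pericytes and smooth muscle, moved less and later. It lies on chromosome 18, plus strand, from 61045150 to 61085061. Control mice had 40.3, 41.7 and 43.2 FPKM. The values were 34.8, 38.4 and 45.2 at 10 min, 38.2, 40.9 and 40.5 at 1 h, and 36.7, 39.7 and 36.1 at 6 h. All 3 mice at 6 h lay below the controls, with a log2 fold change of -0.15 (SE 0.07, limma adjusted p = 0.158). Mice at 24 h had 40.6, 47.0 and 46.5 FPKM (log2 difference 0.10 with SE 0.09, adjusted p = 0.409). At 72 h the values were 49.3, 72.2 and 57.3, all above the controls and widely spread (log2 difference 0.49 with SE 0.12, adjusted p = 0.00624). The difference at 72 h was not called after median-of-ratios scaling (0.17, adjusted p = 0.184) or quantile normalization (0.30, adjusted p = 0.0579). The step from 24 h to 72 h was 0.39 (SE 0.15, adjusted p = 0.0715), and 0.52 with adjusted p = 0.0386 without the first 72 h mouse. Over 14 alternatives this step ran from 0.23 to 0.52, with limma adjusted p of up to 0.200.

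The ratio of the 2 receptors within a mouse does not depend on a common scale factor. Pdgfrb exceeded Pdgfra in each control mouse, with ratios of 1.24, 1.33 and 1.39. The ratio was 1.12, 1.06 and 1.06 at 10 min and 1.06, 1.04 and 1.16 at 1 h, below all controls. At 6 h it was 0.910, 1.38 and 0.828, and the second mouse overlapped the controls. Pdgfra exceeded Pdgfrb in each mouse at 24 h, with ratios of 0.880, 0.884 and 0.673, and at 72 h, with 0.702, 0.856 and 0.753. An exact two-sided permutation test against the controls gave p = 0.1 at 10 min, 1 h, 24 h and 72 h, the smallest p that 3 mice against 3 allow, and p = 0.3 at 6 h (Benjamini-Hochberg adjusted 0.125 and 0.3 over the 5 tests). The summed FPKM of both receptors was 73.3 ± 0.776 in control mice, 100.8 ± 14.4 at 24 h and 136 ± 18.8 at 72 h. The 4 ligands together had 60.9 ± 5.58, 81.0 ± 21.2 and 62.3 ± 7.22 FPKM (SD, n = 3).

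**Figure D3:**
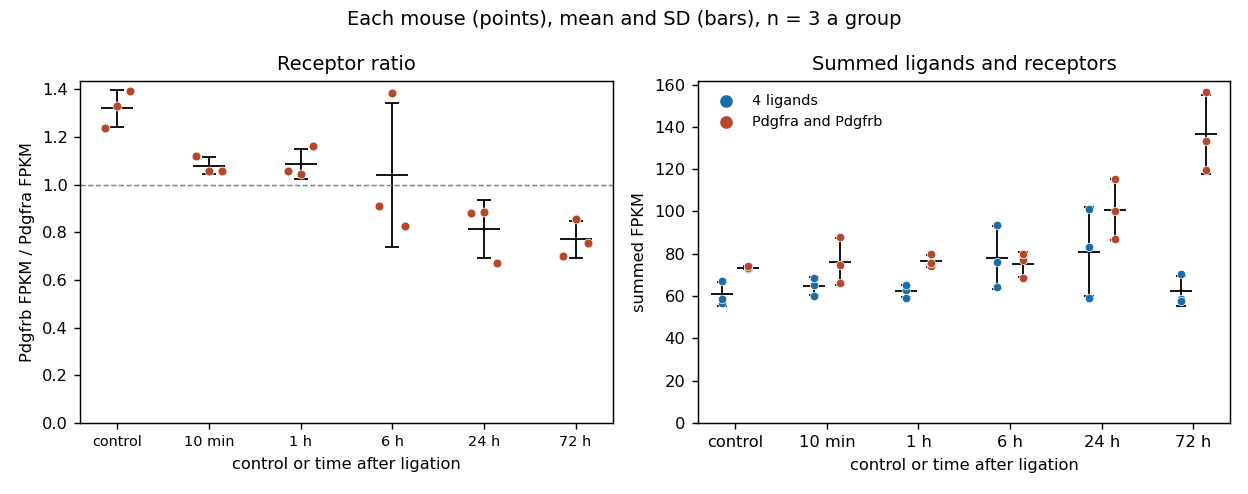
Left, FPKM of Pdgfrb divided by that of Pdgfra in each mouse, with a dashed line at equal levels. Right, summed FPKM of the 4 ligands and of the 2 receptors. Points are mice, and bars give mean and SD (n = 3). The ratio lies above 1.2 in the controls and below 0.9 in all mice at 24 h and 72 h, and the receptor sum at 72 h (119 to 157) lies above that of every control.

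Pdgfrl, the kinase-free relative, had the widest course of the 7 genes, lower at 24 h and higher at 72 h. It lies on the plus strand at chr8:40926212-40990785. Control mice had 1.23, 0.791 and 1.29 FPKM, mice at 10 min 0.721, 1.36 and 1.37, and mice at 1 h 1.09, 1.22 and 1.08. These groups overlapped. At 6 h the values were 0.867, 0.589 and 0.808 FPKM, of which 1 lay below all controls (log2 difference -0.26 with SE 0.12, limma adjusted p = 0.156). At 24 h all 3 lay below them, with 0.523, 0.547 and 0.187 FPKM (log2 difference -0.57 with SE 0.15, adjusted p = 0.0272). The call at 24 h was lost without the first control mouse (adjusted p = 0.0964) or the third (0.0925), and with a pseudocount of 0.1 the log2 fold change was -1.28. Over all genes, the number called lower at 24 h also went from 1516 to 366 without the first control mouse and 468 without the third.

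At 72 h Pdgfrl reached 11.1, 11.2 and 13.1 FPKM, 10.7 times the control mean (log2 difference 2.61 with SE 0.12, adjusted p = 2.07e-07). Its log2 fold change was the 473rd highest of 13329 genes. Against 24 h the difference was 3.18 (SE 0.14, adjusted p = 2.81e-05), the 52nd highest of 13330. The rise at 72 h was called under all 14 alternatives, with log2 fold changes from 2.17 to 3.33.

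**Figure D4:**
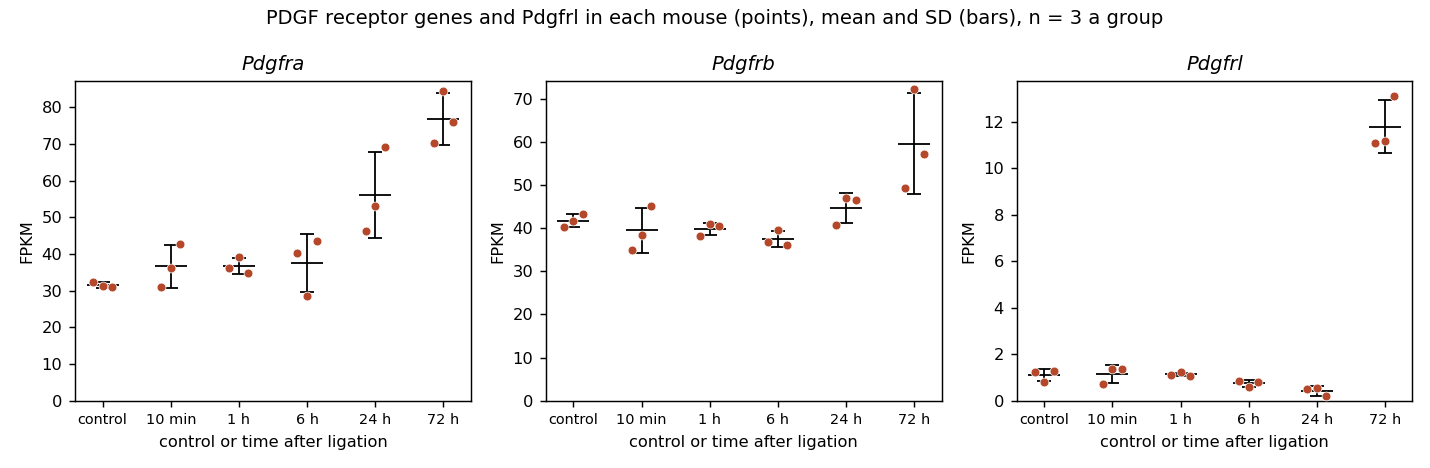
FPKM of Pdgfra, Pdgfrb and Pdgfrl in each mouse of the control group and of the 5 times after ligation, each panel with its own axis from 0. Points are mice, and bars give mean and SD (n = 3). Pdgfra is above the controls in every mouse at 24 h and 72 h, and Pdgfrl goes from below the controls at 24 h to 11.1 to 13.1 FPKM at 72 h. The difference of Pdgfrb at 72 h was not called after median-of-ratios scaling or quantile normalization.

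Later times were also compared directly. From 6 h to 24 h limma called 0 members, where 12.5% of all genes were called higher and 1.94% lower, and 2 members (Pdgfra and Pdgfd) had an unadjusted p under 0.05, as had 4855 of all genes. Of all genes, 1664 were higher and 258 lower in that step as deposited, and 403 and 368 after median-of-ratios scaling. From 24 h to 72 h Pdgfrl and Pdgfc were called higher, 2 of 7 against 29.7% of all genes, and 0 lower, against 13.5%. Median-of-ratios scaling gave 3159 genes higher and 2693 lower in the second step, in place of 3963 and 1799, and quantile normalization 2775 and 3424. Pdgfb in that step went from a mean of 72.8 ± 20.2 to 53.6 ± 6.98 FPKM (log2 difference -0.40 with SE 0.21, adjusted p = 0.162), and was called lower after median-of-ratios scaling (-0.56, adjusted p = 0.0489) and without the first 24 h mouse (-0.63, adjusted p = 0.0211). Over 14 alternatives its log2 difference ran from -0.63 to -0.22, with limma adjusted p of up to 0.351.

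Genes for proteins that process PDGF or bind it outside the cell were called at about the rate of all genes at 72 h. Of 12 genes in this list 10 were tested, and 6 were higher and 1 lower, where 53.1% and 24.2% of all genes were, with a median log2 fold change of 0.60 beside 0.29 for all genes. Sparc, a matrix protein that binds B chains, had a log2 fold change of 2.78 (SE 0.12, limma adjusted p = 1.93e-07). Plau, the urokinase that cleaves PDGF-D, had 2.22, and Lrp1, a co-receptor of the β receptor, had 2.01. At 24 h 6 were again higher and 1 lower, beside 26.2% and 11.4% of all genes. Pcsk6, a proprotein convertase, fell (log2 fold change -1.36, adjusted p = 0.0166), and Plau (1.23) and Sparc (0.89) rose. At 6 h 2 were higher and 2 lower, among them Furin, the convertase of the A and B chains (0.93), Plat, the protease of PDGF-C (0.69), and Pcsk6 (-1.03). After median-of-ratios scaling the counts at 72 h were 5 higher and 3 lower, and after quantile normalization 5 and 4.

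Genes of receptor-proximal signalling, the adaptors and kinases next to the activated receptor, did not move together. Of 33 tested, 4 were higher and 9 lower at 6 h. There were 9 higher with 1 lower for 24 h, and 18 with 6 for 72 h. All genes tested gave 11.6% with 16.8%, 26.2% with 11.4%, and 53.1% with 24.2%, so the counts for 72 h are near those of all genes. The median log2 fold change at 72 h was 0.26, beside 0.29 for all genes. After median-of-ratios scaling the counts were 7 with 5, 7 with 2, and 9 with 10, and after quantile normalization that for 72 h was 9 with 12. Stat3, a transcription factor activated by many receptors, led at 6 h (log2 difference 1.31 with SE 0.15, limma adjusted p = 0.00172) and at 24 h (1.11). Pik3r2 (-0.72) and Gab1 (-0.54), a PI3-kinase subunit and a docking protein, fell at 6 h, and Nras (0.92) and Shc1 (0.83) rose at 24 h. The largest at 72 h were the adaptor Shc1 (1.32), the GTPase Nras (1.28) and the kinase Src (1.20).

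Most genes that switch off or remove receptors were called higher at 72 h, and a smaller part at 6 h and 24 h. The number called higher of 9 tested was 3 for 6 h, 4 for 24 h and 8 for 72 h, with 0 lower each time, where 11.6%, 26.2% and 53.1% of all genes were higher. The median log2 difference was 0.31 at 6 h, 0.70 at 24 h and 0.90 at 72 h, beside -0.08, 0.13 and 0.29 for all genes. After median-of-ratios scaling 7 were higher and 1 lower at 72 h, and after quantile normalization 5 and 0, with 1 and 0 at 24 h. At 6 h the called genes were Cblb, a ubiquitin ligase (0.97), and the tyrosine phosphatases Ptpn1 (0.92) and Ptpn2 (0.73). Ptpn1 (1.22), the phosphatase Ptprj (0.84) and Cblb (0.73) led at 24 h. At 72 h Slc9a3r1, a scaffold that binds the β receptor, had 2.24 (SE 0.10, limma adjusted p = 2.34e-07), Ptprj 2.09 and Ptpn1 2.07.

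Receptors of the same structural class and their ligands, 7 genes in all, gave a mixed picture. At 6 h 0 were higher and 3 lower, namely Flt3l, Csf1r and Kitl, with log2 fold changes of -0.62, -0.46 and -0.41. The background shares were 11.6% (higher) and 16.8% (lower) of all genes tested. At 24 h Flt3 (1.14), Kit (0.87) and Csf1r (0.72) were higher and 0 lower, against background shares of 26.2% (higher) and 11.4% (lower). Flt3 reached 1 FPKM only in mice at 24 h and 72 h, so it passed the filter through the groups where it was high. At 72 h 3 were higher and 1 lower, with 2.67 for Csf1r (SE 0.09, limma adjusted p = 4.11e-08), 2.14 for Flt3 and -0.85 for Kitl. Neither count exceeded its background share, 53.1% (higher) or 24.2% (lower). The list had a median log2 fold change of 0.15 at this time, below the 0.29 of all genes. Csf1r is the receptor of macrophage growth factors and also stands among the macrophage markers used here. Median-of-ratios scaling gave 2 higher with 2 lower for 24 h and 3 with 2 for 72 h, and quantile normalization gave 2 with 4 for 72 h. In these lists 0 genes were called at 10 min or 1 h.

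Markers of fibroblasts, the cells of Pdgfra, were mixed at 24 h and higher at 72 h. Their summed FPKM over 10 genes was 417.5 to 491 in controls, 322 to 414 at 6 h, 368 to 542 at 24 h and 3843 to 4773 at 72 h. At 24 h 3 were higher (Col3a1, Col1a1 and Mfap5, with log2 fold changes of 1.35, 1.17 and 1.12) and 2 lower (Dcn, -0.68, and Dpt, -0.66). Both Dcn and Dpt are matrix genes of resting fibroblasts, and the fibroblast transcription factor Tcf21 had -0.22 (limma adjusted p = 0.159). Of all genes at 24 h, 26.2% were higher and 11.4% lower. At 72 h 9 of 10 were higher, beside 53.1% of all genes. Their median log2 fold change was 1.99, beside 0.29 for all genes. From controls to 72 h mean FPKM went from 125 to 194 for Dcn, from 170 to 501 for Dpt and from 3.99 to 12.3 for Tcf21. All 10 of 10 were higher at 72 h than at 24 h, beside 29.7% of all genes. The part of a larger number of fibroblasts in the rises of Pdgfra, Pdgfc and Pdgfrl was not tested.

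Markers of mural cells, the cells of Pdgfrb, were lower in part at 6 h, 24 h and 72 h. The sum of 10 markers was 546 to 601 FPKM in controls, 385 to 469 at 6 h, 404 to 460 at 24 h and 717 to 921 at 72 h. At 72 h 6 were lower, among them Abcc9 (-1.83), Myh11 (-1.31) and Kcnj8 (-1.27), and 2 were higher, Tagln (2.21) and Acta2 (1.70), contractile genes that activated fibroblasts also express. The calls for 6 h were 0 higher with 6 lower, and those for 24 h 0 with 5. All genes gave 11.6% higher with 16.8% lower at 6 h, 26.2% with 11.4% at 24 h, and 53.1% with 24.2% at 72 h. Cspg4, which stands in both this list and that of PDGF binding proteins, had -0.22 at 72 h (limma adjusted p = 0.25). The part of fewer pericytes or of other cells in the level of Pdgfrb was not tested.

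**Figure D5:**
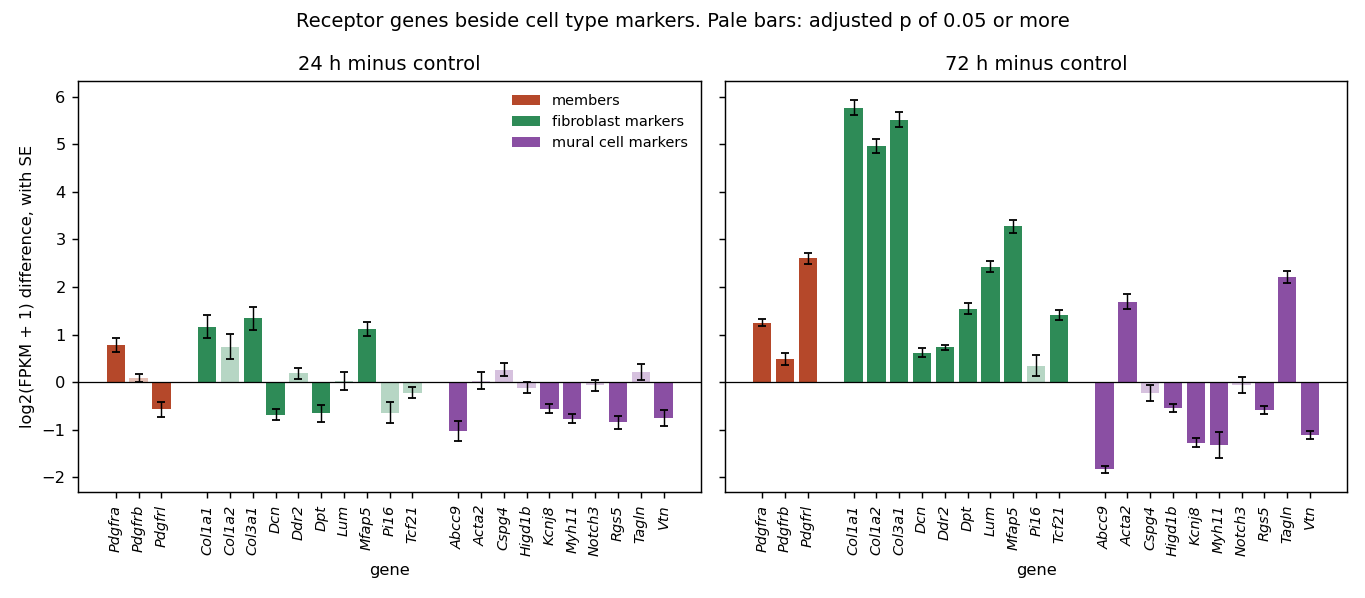
Difference in log2(FPKM + 1) from the control mice at 24 h (left) and 72 h (right) for Pdgfra, Pdgfrb and Pdgfrl, 10 fibroblast markers and 10 mural cell markers. Bars are fitted differences with their SE, pale where the adjusted p was 0.05 or more. At 24 h Pdgfra (0.79) is higher, and of the fibroblast markers Col3a1, Col1a1 and Mfap5 are higher and Dcn and Dpt lower. At 72 h 9 of 10 fibroblast markers are higher, beside 53.1% of all genes, and 6 of 10 mural markers lower, beside 24.2%. Pdgfrb at 72 h was not called after median-of-ratios scaling or quantile normalization.

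Other cell types changed in the same samples. Cardiomyocyte markers, 9 genes that define heart muscle, summed to 67461 to 71509 FPKM in controls and 22844 to 29599 at 72 h. All 9 were lower at 72 h, beside 24.2% of all genes. Macrophage markers went from 372 to 441 FPKM in controls to 765 to 933 at 24 h and 5202 to 6854 at 72 h. All 10 were higher at 72 h, beside 53.1% of all genes. Neutrophil markers ran from 2.32 to 4.99 FPKM in controls, from 116 to 997 at 6 h and from 42.6 to 965 at 24 h. The mice of these 2 times thus differed widely in neutrophil markers. Whether this bears on the smaller spread of Pdgfb and Pdgfra at these times was not tested.

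For each member the 3 genes nearest in time course were sought among 12607 tested genes with regular symbols, by the root mean square difference of the mean log2 fold change from control over the 5 times. Those of Pdgfrl were Stmn1 (0.206), Cpxm1 (0.237) and Col8a2 (0.243), the last a collagen. Pdgfra was nearest to Ahi1 (0.0679), Slc38a1 (0.0775) and Creb3l2 (0.0906), Pdgfc to Uhrf2 (0.0539), Pcdhgc3 (0.0646) and Rab43 (0.0763), and Pdgfrb to Zfp456 (0.0270), Thoc2 (0.0286) and Mfsd7a (0.0299). For Pdgfb they were Chst3 (0.0359), Arih2 (0.0439) and Zkscan5 (0.0573), for Pdgfa Dnajc2 (0.0238), Nop9 (0.0300) and Hdgf (0.0397), and for Pdgfd Hs3st3b1 (0.0722), Ssh2 (0.0744) and Lect1 (0.0828). With a pseudocount of 0.1 only 6 of these 21 neighbours were found again.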

How the data were processed

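RNA from 18 mouse hearts, 3 per group, was analysed. Reads were trimmed (cutadapt 1.18), mapped to mm10 (HISAT2 2.1.0) and turned into expression values (StringTie 1.3.4d) by the authors. The deposited table gives FPKM per gene symbol and mouse, and the gene annotation behind it is not given in the sources used here. The submitters' notes also name Cufflinks and Cuffdiff. The study's description of the libraries does not say whether they keep strand. The names of 4 columns were spelled otherwise than the sample titles and were matched by group and number, and 0 columns were left unused. FPKM sums per mouse ran from 542418 to 600467. Without read counts the depth is unknown, and precision was judged from the spread of the 3 mice in a group.

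FPKM were used as deposited, for genes with at least 1 FPKM in any mouse, as log2(FPKM + 1), which understates changes of low genes. A comparison used its own 6 mice in limma 3.58.1 (R 4.3.3, variance trend), with Benjamini-Hochberg adjustment over all genes, and genes without variance were dropped. Ratios of receptors used exact permutation tests (scipy 1.17.1). Of these steps, only the limma fit was tested on simulated data, in which few genes changed, unlike at 72 h. Alternatives were leaving out each mouse, a replicate block, a joint fit of all 18 mice, no variance trend, quantile normalization, median-of-ratios scaling, dropping the filter or setting it on mean FPKM, and a pseudocount of 0.1. Members, gene lists and markers were chosen with earlier results of these data known. Named were all 7 members, at most the 3 called genes of each list with the largest change at 6 h, 24 h or 72 h, and 3 neighbours per member, without predicted genes. Single marker genes of cell types fall outside that rule and were named after their values were seen. Positions are those of GENCODE M21, and promoters those of RefSeq on GRCm38.p6, from which 5 windows for 4 of the members were taken. Both windows of Pdgfa lay inside its annotated gene and are not shown.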

Additional observations from a re-analysis of the deposited data

Results flagged for a closer look

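The 24 h and 72 h groups, set against the same controls, differed from each other in 2 members by a test of the difference itself. Pdgfc was higher at 72 h than at 24 h by 0.96 on the log2(FPKM + 1) scale (limma adjusted p = 0.000503), with all 3 mice at 72 h above all 3 at 24 h. Pdgfrl was higher at 72 h than at 24 h by 3.18 (adjusted p = 2.81e-05), after a lower level at 24 h than in the controls, and again all 3 mice lay above all 3.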

How the results depend on the processing

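Over the alternatives for single members, 646 of 679 values kept their side of the threshold, 11 were no longer called, 21 became called, and 1 lost its call with a change of sign, Pdgfa at 72 h after quantile normalization (-0.17). In all 23 values changed sign, of which 22 were called in neither fit. Member counts moved as follows. Higher at 6 h: 1 with median-of-ratios scaling and 0 to 1 without single mice. Higher at 24 h: 1 with a filter on mean FPKM, quantile normalization or the replicate block, and 1 to 4 without single mice. Lower at 24 h: 0 with the replicate block and 0 to 1 without single mice. Higher at 72 h: 3 with median-of-ratios scaling or quantile normalization. Lower at 72 h: 2 with median-of-ratios scaling. From 6 h to 24 h, all 18 mice in one fit gave 2 higher and 1 lower. That fit also called more of all genes in this step, 4848 higher and 1002 lower, in place of 1664 and 258. From 24 h to 72 h, the higher count was 1 with a filter on mean FPKM, 4 with all mice in one fit, 4 with the replicate block and 2 to 3 without single mice, and the lower count was 1 with median-of-ratios scaling, 2 with quantile normalization and 0 to 1 without single mice. Of all genes, 4790 were higher in this step with all mice in one fit and 3803 with the replicate block, in place of 3963. The filter removes Pdgfc by construction. The cause of the other changes was not tested. Of 168 counts of list genes, 34 moved by over 1.5 times.

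Replicate numbers were checked for pairing. Deviations of same-numbered mice from their group means correlated between -0.327 and 0.415, over 0.1 in 5 of 45 pairs. The main fits used no pairing, and whether some groups shared a batch was not tested. Under the replicate block Pdgfc (adjusted p = 0.0747) and Pdgfrl (0.0536) at 24 h were not called.

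Depth is unknown, so low values (Pdgfc, and Pdgfrl before 72 h) carry a counting error that cannot be given. With 3 mice per group, leaving out single mice changed several calls at 6 h and 24 h.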
